A study of Saccharomyces cerevisiae with 12 samples.

Results

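Ubiquitin marks misfolded proteins for the proteasome through an E1 enzyme, which activates it, E2 enzymes, which carry it, and E3 ligases, which choose the substrate. The ATPase Cdc48 then pulls many ubiquitinated proteins out of complexes or membranes. In yeast, heat unfolds proteins and raises the demand for free ubiquitin, and UBI4, which encodes several ubiquitins head to tail, is known as the stress-inducible source of it. Described here are 10 genes of that route among the 5045 genes in the table. They were chosen by name: the polyubiquitin gene UBI4, the E2 genes UBC4, UBC5 and UBC8, the ligase genes SAN1, UBR1, RSP5, HUL5 and UFD4, and CDC48. All 10 were found and all 10 had a mean value of at least 10, so none was left out of the tests.

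The values come from polyA RNA-seq of 12 libraries of Saccharomyces cerevisiae strain Sis1-AA grown in YPD. In the heat shock course, 5 libraries were taken 15, 30, 60, 90 and 120 min after the temperature was raised to 39 °C, and 1 untreated library was kept at 30 °C. In the rapamycin course, 5 libraries were taken at the same times after 1 µM rapamycin was added, and 1 untreated library of its own was taken; its temperature is not given in the sources used here. Anchor-away strains use rapamycin to bind a tagged protein of the nucleus to an anchor that is exported. Here the protein is Sis1, a J-domain partner of Hsp70, and the comparison asks how its loss from the nucleus compares with heat. Both courses used the same strain, so the heat-shocked cells carried the anchor-away alleles as well. Each time point has 1 library, and no rapamycin-treated strain without the tag on Sis1 was analysed here, so an effect of rapamycin itself and an effect of losing nuclear Sis1 cannot be told apart. The libraries held 2991418 to 4379304 reads in the listed genes. FPR1, which encodes the rapamycin receptor that anchor-away strains usually lack, had 0 to 4 reads in each library, at or near the limit of 3 reads that a count of 0 allows. Depletion acts on the Sis1 protein, which mRNA does not measure. SIS1 mRNA had 443 normalized reads before rapamycin and 2811, 3982, 4197, 4038 and 3461 after 15, 30, 60, 90 and 120 min. Before heat shock it had 670, and 7824, 2940, 1434, 1471 and 1456 at the same times after it. A cause of these SIS1 changes was not tested.

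Values are the authors' normalized read counts. For each gene, 2 quantities were tested. The mean change is the average log2(value + 1) of the 5 treated libraries minus that of the untreated library of the same course. The trend is the change in log2 per doubling of time between 15 and 120 min. Both came from 1 limma fit over 4937 genes, and a gene is called changed at a Benjamini-Hochberg adjusted p under 0.05. The error (SE) reflects how far the treated libraries of both courses lie from a straight line in log2(time). It is the same for a gene in both courses, and it does not measure the spread between cultures.

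Heat shock raised 8 of the 10 genes and lowered none, by the mean change. Among all genes tested, 32.6% were called higher and 37.2% were called lower. The median change of the 10 genes was 0.86, against −0.08 over all genes tested. Rapamycin raised 3 of the 10 and lowered none, where 12.3% of all genes were called higher and 13.9% lower, and the medians were 0.33 for the 10 genes and −0.05 for all genes tested. The 3 genes were UBI4, UBC5 and HUL5, and each of them also rose in heat shock. The difference between the courses, heat shock minus rapamycin, was called higher for 5 of the 10 genes, UBC4, UBC5, UBC8, HUL5 and UFD4, and lower for none. Over all genes tested, 21.7% were called higher in that difference.

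**Figure D1:**
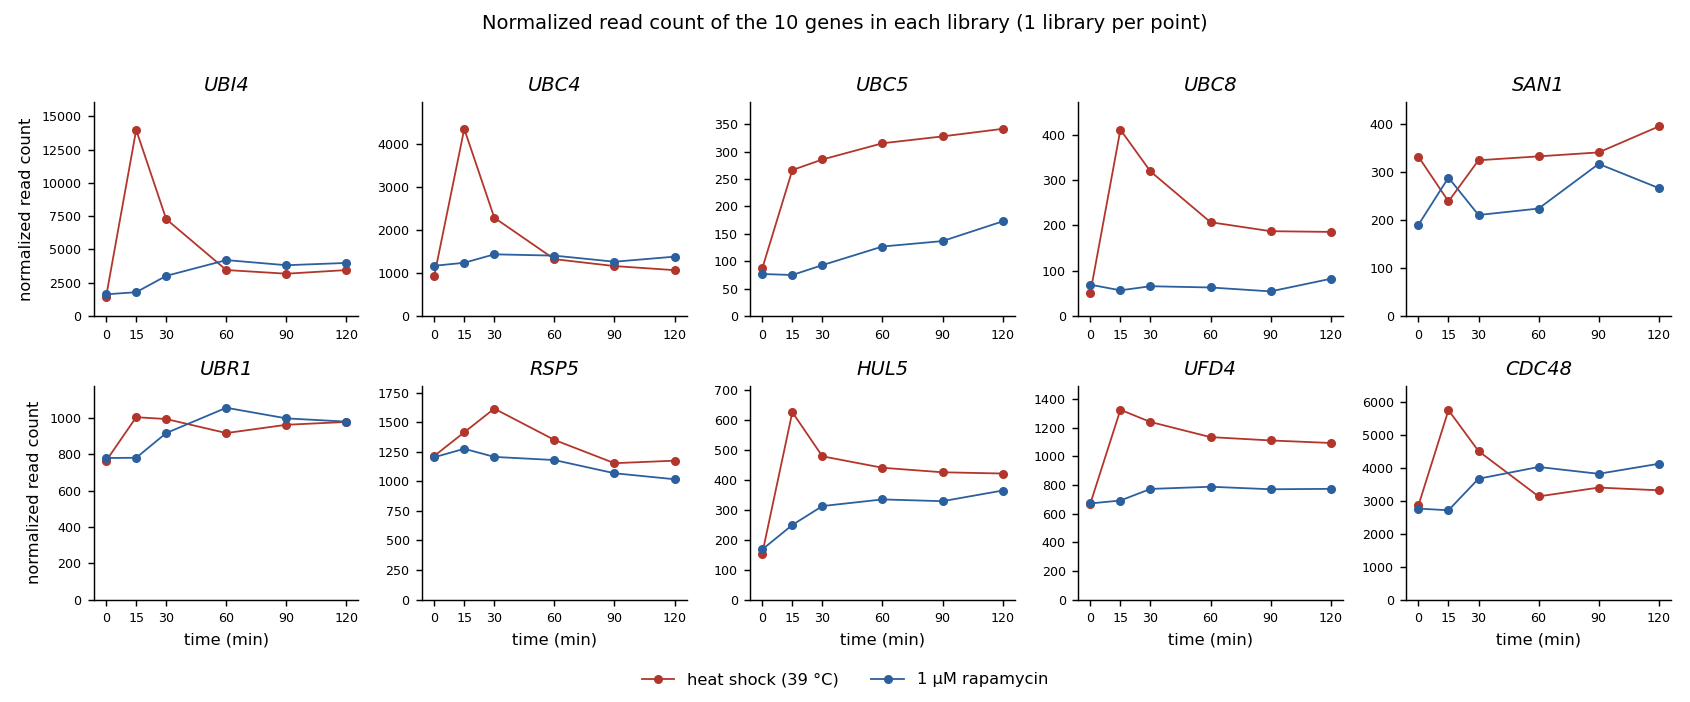
Normalized read count (vertical axis, from 0, scaled for each gene) against time in minutes for the 10 genes, with heat shock in red and rapamycin in blue; each point is 1 library and there are no error bars because no time point was replicated. UBI4, UBC4, UBC8, UBR1, HUL5, UFD4 and CDC48 peaked at 15 min of heat shock, whereas UBC5 was highest at 120 min in both courses.

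UBI4 (YLL039C) lies on the reverse strand of chromosome XII at 64062 to 65207 in RefSeq assembly R64, the assembly that the authors' sacCer3 build holds. Its coding sequence of 1146 bases holds 5 copies of a 228-base unit followed by 6 bases, with 80.3% to 90.4% of bases identical between pairs of copies. Each unit encodes 1 ubiquitin. The number of copies in the strain itself was not measured here. The window below is shown because UBI4 had the highest single value of the 10 genes and holds every motif searched. Its capitals mark, from left to right, an array of 4 alternating heat shock element units (overlapping matches to TTCNNGAA and GAANNTTC, 384 to 367 bases before the start codon), a stress response element (AGGGG, 252 to 248 before) and a proteasome-associated control element, the site of the transcription factor Rpn4 (GGTGGCAAA read on the opposite strand, 160 to 152 before).
UBI4 chrXII:65347-65603, 396 to 140 bases before the start codon, 5′ to 3′ on the gene's strand, RefSeq R64: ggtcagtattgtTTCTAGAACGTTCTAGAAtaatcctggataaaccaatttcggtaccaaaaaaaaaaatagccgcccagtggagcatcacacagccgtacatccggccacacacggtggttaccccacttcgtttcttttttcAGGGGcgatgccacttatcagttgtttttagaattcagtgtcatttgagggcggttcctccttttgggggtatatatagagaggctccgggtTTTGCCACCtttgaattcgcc

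Among 6000 windows of the 500 bases before a start codon, both strands read, 19.2% held GAANNTTC, 21.2% held TTCNNGAA, 34.1% held AGGGG and 1.6% held GGTGGCAAA. A run of at least 3 alternating units was in 1.48% of the windows and a run of 4 in 0.27%, and of the 10 genes UBI4 was the only one with either. A match to these letters is a description and not evidence of binding.

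UBI4 had 1463 normalized reads before heat shock and 13979.8, 7276, 3454, 3179 and 3452 after 15, 30, 60, 90 and 120 min. Before rapamycin it had 1630.2, and 1789, 3016, 4201, 3815 and 3988 at the same times after it. Heat shock thus gave its highest value in the first library and rapamycin in the library at 60 min, and from 60 min on UBI4 stood lower in heat shock than with rapamycin. At 15 min of heat shock the level was 9.56 times the untreated one (95% exact interval 8.97 to 10.2), and at 60 min of rapamycin it was 2.58 times (2.44 to 2.73). These intervals cover counting error only, since reads without molecular identifiers are not independent molecules.

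UBI4 rose by 1.83 ± 0.27 (SE) on average in heat shock and by 0.98 ± 0.27 with rapamycin (limma, adjusted p 0.000149 and 0.0258). The difference of 0.85 ± 0.38 missed the threshold (adjusted p 0.0935 in limma) and was called under 5 of 20 alternatives. The rapamycin rise was not called when the slope was fitted in minutes, or without the 90 min or the 120 min rapamycin library (0.92 and 0.90). The trends ran in opposite directions, at −0.73 ± 0.10 per doubling of time after heat and 0.38 ± 0.10 with rapamycin; they differed by −1.11 ± 0.14 (adjusted p 0.000342, 0.0316 and 0.000325 in limma). In trends, 28.3% of all genes tested were called higher and 25.4% lower in heat shock, 8.32% higher with rapamycin, and 21.0% lower in the difference between trends. The difference between the UBI4 trends was called under all 20 alternatives, while the rapamycin trend lost its call under 6 of them and was 0.19 without the 15 min rapamycin library. Quantile normalization made the heat shock trend −0.33, still called.

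The other sources of ubiquitin moved the other way in heat shock. RPL40A and RPL40B each encode ubiquitin fused to a protein of the large ribosomal subunit, and RPS31 encodes ubiquitin fused to one of the small subunit. RPS31 had 26573 normalized reads before heat shock and 3270.0, 3182, 6427, 6643 and 4956 after 15, 30, 60, 90 and 120 min. It fell by 2.51 ± 0.31 (SE) in heat shock, whereas −0.21 ± 0.31 with rapamycin did not pass the test (adjusted p 4.43e-05 and 0.663 in limma). RPL40A fell by 1.87 ± 0.24 and RPL40B by 2.52 ± 0.37 in heat shock (SE; adjusted p 5.00e-05 and 0.000130 in limma). With rapamycin their changes were −0.12 and 0.02, and neither was called. How alike the coding sequences of RPL40A and RPL40B are was not measured here, so the split of reads between them is uncertain. UBA1, the E1 gene, had a change of 0.05 in heat shock that was not called and rose by 0.64 ± 0.19 (SE) with rapamycin (adjusted p 0.0341 in limma), a call lost under 6 of 20 alternatives.

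Set against these genes within each library, per kilobase of coding sequence, UBI4 made up 1.44% of the summed level of the 4 ubiquitin genes in the untreated heat shock library, then 53.25%, 34.07%, 11.01%, 10.52% and 13.77% over the 5 times. With rapamycin its share was 1.36% untreated and 1.76%, 2.66%, 3.80%, 3.28% and 3.82% at the 5 times. All 5 heat-shocked libraries had a larger share than all 5 rapamycin libraries. With each UBI4 transcript counted for 5 ubiquitins, UBI4 would account for 85.06% of the encoded units at 15 min of heat shock and 44.39% at 120 min, against 6.83% untreated. With rapamycin the same figure was 16.56% at 120 min, against 6.43% untreated. These shares are the same under any single scaling factor per library, which quantile normalization is not. They count mRNA and not protein, and they were chosen after the values were seen. They also depend on how reads matching both RPL40A and RPL40B, or several UBI4 repeats, were counted, which is not given in the sources used here.

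**Figure D2:**
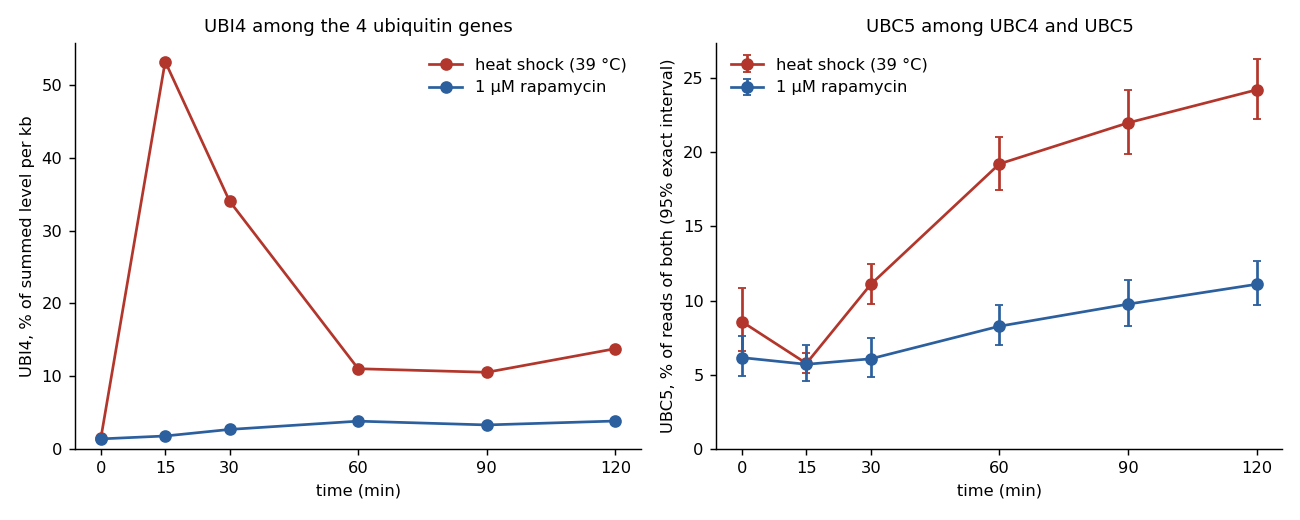
Left, the percent of the summed level per kilobase of UBI4, RPL40A, RPL40B and RPS31 that UBI4 made up; right, the percent of UBC4 and UBC5 reads that came from UBC5, with 95% exact binomial intervals for counting error; both against time in minutes, with heat shock in red and rapamycin in blue and 1 library per point. UBI4 reached 53.25% at 15 min of heat shock and stayed at or below 3.82% with rapamycin; the UBC5 share was 24.22% at 120 min of heat shock and 11.10% at 120 min of rapamycin.

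UBC4 (YBR082C) and UBC5 (YDR059C) encode closely related E2 enzymes that act on short-lived and abnormal proteins and can largely stand in for each other. UBC4 lies on chromosome II at 406628 to 407169 and UBC5 on chromosome IV at 569234 to 569770, both on the reverse strand and each with 1 intron. Their coding sequences have the same length, 447 bases, and agree at 345 of them (77.2%), and no 50-base stretch of either occurs elsewhere in the R64 genome. Reads of that length with no error would not be shared between them.

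UBC4 had 928 normalized reads untreated in the heat shock course and 4358, 2290.1, 1325, 1163 and 1069 at 15, 30, 60, 90 and 120 min. In the rapamycin course it had 1170.1 untreated and 1240.5, 1437, 1407, 1265 and 1383. The heat shock values were high at 15 and 30 min and stood at 1.15 times the untreated value at 120 min (95% exact interval 1.05 to 1.27), and the rapamycin values stayed in a narrow band just above their own untreated library.

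UBC4 rose by 0.91 ± 0.16 (SE) in heat shock (0.59 without the 15 min library, still called), and its rapamycin change was 0.20 ± 0.16 (adjusted p 0.000535 and 0.389 in limma). The difference of 0.71 ± 0.23 was called (adjusted p 0.0271 in limma), but not with the slope in minutes, without the 15 min or the 30 min heat shock library (0.39 and 0.62), or with the untreated libraries exchanged between the courses (0.05). The untreated libraries differed by −0.33 in UBC4, heat shock course minus rapamycin course, and the exchange made the rapamycin change 0.53, which was called. The heat shock trend was −0.69 ± 0.06 per doubling of time and the rapamycin trend 0.02 ± 0.06 (adjusted p 5.93e-05 and 0.848 in limma), and the difference of −0.71 ± 0.09 was called under all 20 alternatives (adjusted p 0.000248 in limma). A single pair of alternating heat shock element units (TTCNNGAA) lies 311 to 304 bases before the start codon of UBC4. It is in capitals here for comparison with the array of UBI4.
UBC4 chrII:407461-407492, 323 to 292 bases before the start codon, 5′ to 3′ on the gene's strand, RefSeq R64: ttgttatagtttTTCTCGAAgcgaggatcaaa

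UBC5 followed another time pattern. It had 87.0 normalized reads untreated and 266, 286, 315, 328 and 342 at 15, 30, 60, 90 and 120 min of heat shock. In the rapamycin course the untreated library had 76.7 and the treated ones 74.9, 92.9, 127, 137 and 173. Each heat-shocked library after the first was higher than the one before it, the rapamycin libraries did the same from 15 min on, and the treated values of the courses did not overlap. How many of all genes lay apart in this way was not counted, which holds for UBC8, HUL5 and UFD4 below as well. The untreated values rest on 61 reads in the heat shock course and 81 in the rapamycin course. At 120 min the ratio to the untreated library was 3.93 (95% exact interval 3.0 to 5.23) in heat shock and 2.25 (1.73 to 2.95) with rapamycin.

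UBC5 rose by 1.80 ± 0.12 (SE) in heat shock and by 0.59 ± 0.12 with rapamycin, and the difference was 1.21 ± 0.16 (adjusted p 5.18e-07, 0.00602 and 0.000322 in limma). Its trend was 0.12 ± 0.04 per doubling of time in heat shock and 0.38 ± 0.04 with rapamycin (adjusted p 0.0372 and 0.000663 in limma). The heat shock trend lost its call under 10 of the 20 alternatives and the rapamycin trend under none. The difference between the trends, −0.26 ± 0.06, was called (adjusted p 0.00597 in limma) but not under equal totals (−0.12). Neither heat shock element, stress response element nor Rpn4 site was matched in the 500 bases before UBC5.

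The balance of the pair also differed between libraries, a measure that a single scaling factor per library does not alter. UBC5 gave 8.57% of the reads of both genes in the untreated heat shock library (95% exact interval 6.62 to 10.9), then 5.76%, 11.09%, 19.22%, 21.99% and 24.22% over the 5 times. In the rapamycin course it gave 6.15% untreated (4.91 to 7.59), then 5.70%, 6.07%, 8.27%, 9.76% and 11.10%. The last intervals, 22.2 to 26.3 in heat shock and 9.69 to 12.7 with rapamycin, lie above those of the untreated libraries and apart from each other. Counting error is the only error in these intervals.

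UBC8 (YEL012W, chromosome V, 131772 to 132551, forward strand, 1 intron) encodes the E2 that works with the GID ligase, known for the degradation of gluconeogenic enzymes when glucose returns. It had 51.3 normalized reads untreated and 411, 319, 207, 187 and 185 at 15, 30, 60, 90 and 120 min of heat shock. The rapamycin course gave 69.1 untreated, then 56.6, 65.7, 62.9, 54.3 and 82.0. All 5 heat-shocked libraries lay above every rapamycin and untreated library. The ratio to the untreated library was 8.0 at 15 min of heat shock (95% exact interval 5.68 to 11.6) and 3.61 at 120 min (2.53 to 5.29), on 36 untreated reads.

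UBC8 had the largest mean change of the 10 genes in heat shock, 2.25 ± 0.19 (SE), while the rapamycin change was −0.12 ± 0.19 (adjusted p 3.70e-06 and 0.692 in limma). The rapamycin value changed sign, uncalled, with the untreated libraries exchanged (0.305) or shared (0.09). The difference between courses was 2.37 ± 0.27 (adjusted p 0.000146 in limma), the largest of the 10, and was 1.52, still called, with the untreated libraries exchanged. Its heat shock trend was −0.42 ± 0.07 per doubling of time, its rapamycin trend of 0.09 was not called, and the difference between trends was −0.50 ± 0.10 (adjusted p 0.00107, 0.437 and 0.00307 in limma). None of the 4 motifs was matched in the 500 bases before UBC8.

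**Figure D3:**
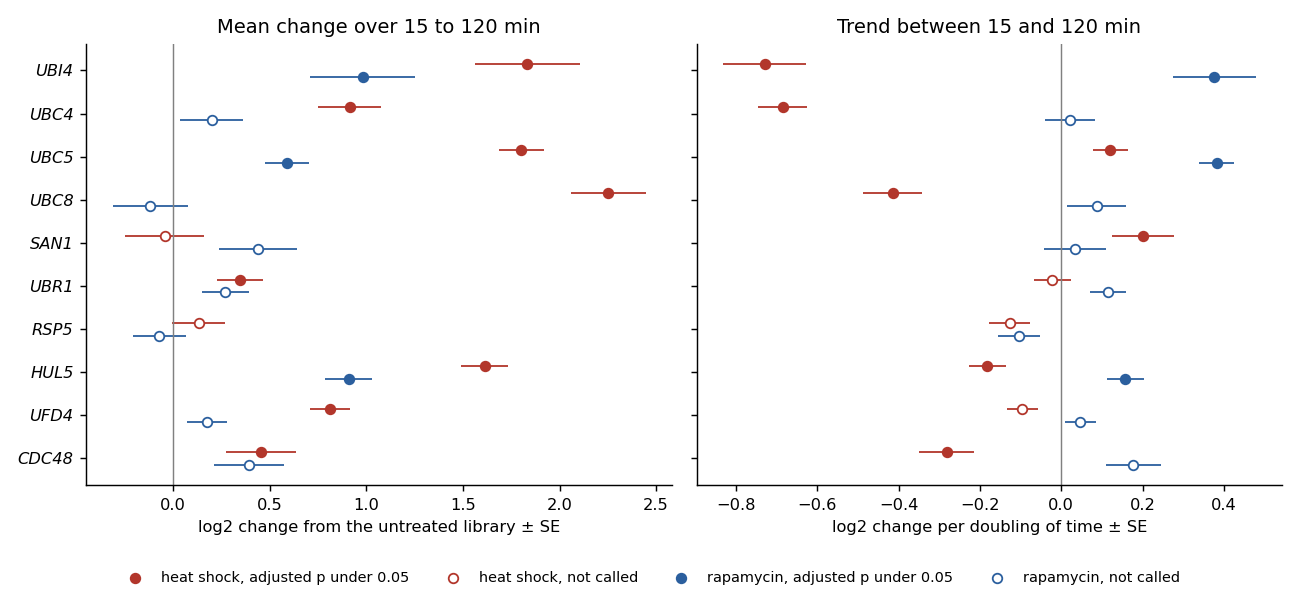
Mean log2 change from the untreated library (left) and log2 change per doubling of time (right) for the 10 genes, as points with 1 SE from limma, heat shock in red and rapamycin in blue; filled points have an adjusted p under 0.05 and open points do not. UBC8 at 2.25 and UBI4 at 1.83 lie farthest right in heat shock, and the UBI4 trends lie on opposite sides of 0 at −0.73 and 0.38.

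Of the ligase genes, HUL5 (YGL141W, chromosome VII, 238353 to 241085, forward strand) encodes a HECT ligase bound to the proteasome that extends ubiquitin chains and acts on misfolded cytosolic proteins. It had 154 normalized reads untreated and 626, 479, 441, 425 and 421 at 15, 30, 60, 90 and 120 min of heat shock. Under rapamycin the values were 168 untreated and then 249, 313, 335, 329 and 364. All treated libraries lay above both untreated ones, and the heat shock values lay above the rapamycin values without overlap. The 15 min heat shock library stood at 4.07 times the untreated one (95% exact interval 3.31 to 5.04), and the 120 min rapamycin library at 2.18 times (1.82 to 2.61).

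HUL5 rose by 1.61 ± 0.12 (SE) in heat shock and by 0.91 ± 0.12 with rapamycin, with a difference of 0.70 ± 0.17 (adjusted p 1.47e-06, 0.0013 and 0.00747 in limma). Its trends were −0.18 ± 0.05 per doubling of time in heat shock and 0.16 ± 0.05 with rapamycin (adjusted p 0.00705 and 0.0398 in limma). The heat shock trend was not called under equal totals (−0.01), with the slope in minutes or without the 15 min library (−0.10), and the rapamycin trend was not called under 7 of 20 alternatives and was 0.09 without the 15 min library of that course. The difference between trends was −0.34 ± 0.06 (adjusted p 0.0021 in limma). HUL5 has 1 pair of alternating heat shock element units (GAANNTTC) 338 to 331 bases before its start codon, shown in capitals because HUL5 rose in both courses. This pair lies inside the neighbouring gene YGL142C.
HUL5 chrVII:238003-238034, 350 to 319 bases before the start codon, 5′ to 3′ on the gene's strand, RefSeq R64: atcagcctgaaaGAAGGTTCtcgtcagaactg

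UFD4 (YKL010C, chromosome XI, 421424 to 425875, reverse strand) encodes the HECT ligase of the ubiquitin fusion degradation pathway. It had 670.3 normalized reads untreated and 1325, 1239.9, 1134, 1111 and 1093 at 15, 30, 60, 90 and 120 min of heat shock. The untreated rapamycin library had 671, followed by 691.5, 772, 788, 770.2 and 773. The untreated libraries differed by 0.00 on the log2 scale, and the treated ranges of the courses did not overlap. UFD4 rose by 0.81 ± 0.10 (SE) in heat shock, and its rapamycin change of 0.18 ± 0.10 was not called; the difference of 0.64 ± 0.15 was (adjusted p 5.11e-05, 0.231 and 0.00552 in limma). Its trend was called in neither course.

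UBR1 (YGR184C, chromosome VII, 859901 to 865753, reverse strand) encodes the ligase of the N-degron pathway, which also acts on misfolded cytosolic proteins. It had 764 normalized reads untreated and 1005, 995, 917, 963 and 978 at 15, 30, 60, 90 and 120 min of heat shock. The rapamycin course began at 780.05 untreated and continued with 781, 917, 1057, 998 and 980.2. The rise in heat shock was 0.34 ± 0.12 (SE; adjusted p 0.0243 in limma), a call that a slope in minutes removed. The rapamycin change of 0.27 ± 0.12 was not called (adjusted p 0.120 in limma), but was under equal totals (0.37), quantile normalization (0.41) and with the untreated libraries shared (0.29). The difference between the courses was 0.07 ± 0.17 and was not called.

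RSP5 (YER125W, chromosome V, 410189 to 412618, forward strand) encodes the HECT ligase of endocytosis, which also ubiquitinates heat-damaged cytosolic proteins. It had 1215 normalized reads untreated and 1415, 1616, 1351, 1154 and 1175 at 15, 30, 60, 90 and 120 min of heat shock. For rapamycin they were 1204 untreated and 1276, 1207, 1181, 1069 and 1018. The values at 90 and 120 min lay below the untreated library in both courses. Its mean changes were 0.13 ± 0.14 (SE) in heat shock and −0.07 ± 0.14 with rapamycin, neither called (adjusted p 0.408 and 0.738 in limma). The heat shock change was called under equal totals (0.41) and quantile normalization (0.50), and the rapamycin change turned positive, uncalled, under the same settings (0.02 and 0.10).

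SAN1 (YDR143C, chromosome IV, 742042 to 743874, reverse strand) encodes a ligase for misfolded proteins in the nucleus, the compartment from which Sis1 is removed. It had 332 normalized reads untreated and 239, 325, 333, 341 and 395 at 15, 30, 60, 90 and 120 min of heat shock. The rapamycin libraries had 190.3 untreated and then 289, 211, 224, 317 and 267. SAN1 was the only one of the 10 genes whose lowest value of the heat shock course, untreated library included, was at 15 min, and its untreated libraries differed by 0.80, heat shock course minus rapamycin course, a larger difference than 97.5% of genes had. None of its mean change in heat shock, −0.04 ± 0.20 (SE), that with rapamycin, 0.44 ± 0.20, and their difference, −0.48 ± 0.29, was called (adjusted p 0.861, 0.136 and 0.192 in limma). Exchanging the untreated libraries made these 0.76, −0.36 and 1.12, the first and the last of them called (adjusted p 0.00657 and 0.00828 in limma), so no direction is given for SAN1. Its heat shock trend was 0.20 ± 0.08 per doubling of time (adjusted p 0.0466 in limma) and lost its call under 9 of 20 alternatives, with a value of 0.12 without the 15 min library.

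CDC48 (YDL126C, chromosome IV, 236157 to 238664, reverse strand) had 2854 normalized reads untreated and 5744, 4502, 3127, 3395 and 3313 at 15, 30, 60, 90 and 120 min of heat shock. Its rapamycin values were 2759 untreated and then 2708, 3664, 4019.7, 3813 and 4117. As for UBI4, the highest value was at 15 min in heat shock and late with rapamycin, and rapamycin was higher from 60 min on. CDC48 rose by 0.45 ± 0.18 (SE) in heat shock, while its change of 0.39 ± 0.18 with rapamycin was not called (adjusted p 0.0447 and 0.133 in limma). The heat shock call was lost under 7 of 20 alternatives, among them those without the 15 min or the 30 min heat shock library (0.31 and 0.40) and without the 30, 60, 90 or 120 min rapamycin library (0.45 each), whereas quantile normalization made the rise 1.08. The difference between the courses was 0.06 ± 0.26 and was not called (adjusted p 0.866 in limma).

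The heat shock trend of CDC48 was −0.28 ± 0.07 per doubling of time and its rapamycin trend 0.18 ± 0.07 (SE; adjusted p 0.00574 and 0.0926 in limma). The first was not called under quantile normalization (−0.02) or equal totals (−0.11), with a slope in minutes, or without the 15 min library (−0.21). The difference of −0.46 ± 0.10 was called (adjusted p 0.00346 in limma), except without the 15 min rapamycin library (−0.35). Besides UBI4, CDC48 was the one gene of the 10 with a match to the Rpn4 element GGTGGCAAA, at 141 to 133 bases before the start codon. A stress response element on the opposite strand lies 159 to 155 bases before it, and capitals mark both.
CDC48 chrIV:238785-238835, 171 to 121 bases before the start codon, 5′ to 3′ on the gene's strand, RefSeq R64: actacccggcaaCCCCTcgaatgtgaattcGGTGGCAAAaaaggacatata

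The remaining ligase genes held scattered matches. UFD4 had GAANNTTC at 447 to 440, TTCNNGAA at 244 to 237 and AGGGG at 139 to 135 bases before its start codon. RSP5 had TTCNNGAA at 302 to 295 and AGGGG on the opposite strand at 79 to 75. UBR1 had GAANNTTC at 12 to 5 and AGGGG on the opposite strand at 173 to 169, and SAN1 had AGGGG alone, on the opposite strand at 47 to 43. UBC5 and UBC8 had no match. Whether the matches of UFD4, RSP5, UBR1 and SAN1 lie inside neighbouring genes, as that of HUL5 does, was not checked. Only exact matches were searched, so variant sites would be missed, and a relation between matches and changes was not tested.

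Per kilobase of coding sequence, the medians over the 12 libraries put UBI4 first at 3013 normalized reads (range 1277 to 12199), followed by UBC4 at 2897 (2077 to 9749) and CDC48 at 1407 (1079.6 to 2290.2). RSP5 followed at 496 (419 to 665), then UBC5 at 346 (168 to 764). The lowest 5 were UFD4 at 175 (151 to 298), UBR1 at 166 (131 to 181), SAN1 at 165 (104 to 216), HUL5 at 128 (56.4 to 229) and UBC8 at 115 (78.1 to 625). Of neighbours in this order, only CDC48 and RSP5 had ranges that did not overlap. No annotated gene overlaps any of the 10, and 50-base stretches found at several places occur within UBI4 alone, where 18.23% of them repeat inside the gene. How reads matching several UBI4 repeats were counted is not given in the sources used here.

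The likeness of log2 levels over the 12 libraries, given as Pearson's r among 4818 genes with a mean of at least 50, is a description of libraries that share a strain, a course and a scaling. The genes most like UBI4 were DDI1 (0.97), which encodes a ubiquitin receptor and protease, UBX5 (0.97) and SHP1 (0.96), which encode Cdc48 cofactors, and CPR6 and AHA1 (0.97 each), which encode Hsp90 co-chaperones. CDC48 was most like SHP1 (0.96), DDI1 (0.96), UBI4 (0.95), PDX3 (0.95) and ADI1 (0.95). UBC4 was most like CHC1 (0.96), ARC35 (0.96), PNG1 (0.95), PAN3 (0.95) and GYP5 (0.95). Among the 10 genes themselves, UBC8 and UFD4 had an r of 0.97, UBC4 and UBC5 one of 0.35, and UBI4 and SAN1 one of −0.003.

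Other genes of the ubiquitin system were taken from 7 lists by function, 80 genes in all. Heat shock raised 40 and lowered 18 of them (median 0.46), and rapamycin raised 20 and lowered 7 (median 0.18), beside the shares and medians of all genes given above. Of 14 Cdc48 cofactors, heat shock raised 10 and lowered 1 (median 0.69), and rapamycin raised 7 and lowered 1 (median 0.62). UBX6 and UBX3, which carry the UBX domain that binds Cdc48, had the largest rises in heat shock, 1.26 ± 0.25 and 1.09 ± 0.14 (SE), and uncalled changes of 0.61 and 0.19 with rapamycin. UBX2, which brings Cdc48 to the membrane of the endoplasmic reticulum, rose by 0.65 ± 0.15 in heat shock and by 1.115 ± 0.15 with rapamycin. UFD1 and NPL4, the substrate-binding pair, rose by 0.46 ± 0.15 and 0.81 ± 0.17 in heat shock and by 0.88 ± 0.15 and 0.80 ± 0.17 with rapamycin (adjusted p for UBX2, UFD1 and NPL4 0.0013 to 0.0173 in limma). VMS1, which works with Cdc48 at mitochondria and ribosomes, fell by 0.63 ± 0.13 in heat shock and by 0.46 ± 0.13 with rapamycin. The trend of the cofactors was called lower in heat shock for 10 of 14 and higher with rapamycin for 7 of 14, and the difference between trends was called lower for 12 of 14, beside 25.4%, 8.32% and 21.0% of all genes. Under equal totals the median heat shock trend of all genes was 0.18 and their median difference in trend 0.15. Both medians were 0.01 with the authors' scaling. How these trend counts change under equal totals is not given here. With the untreated libraries exchanged, the rapamycin rise of UBX2 was 0.36 and not called. The heat shock rise of UFD1 was not called when the slope was fitted in minutes, and the rapamycin fall of VMS1 lost its call under 5 of 20 alternatives.

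Among the 4 shuttle factors and ubiquitin receptors, which carry ubiquitinated proteins to the proteasome or to autophagy, heat shock raised 3 and lowered RAD23 (median 0.57), and rapamycin raised 3 (median 0.79). Of all genes tested, heat shock raised 32.6% and lowered 37.2%, and rapamycin raised 12.3% and lowered 13.9%. DSK2 rose by 0.48 ± 0.18 (SE) in heat shock and by 1.20 ± 0.18 with rapamycin (adjusted p 0.0356 and 0.00198 in limma); the first was not called when heat shock at 15 or 30 min, or rapamycin at 90 min, was left out. CUE5 rose by 0.67 ± 0.12 in heat shock and by 0.88 ± 0.12 with rapamycin. DDI1 rose by 0.90 ± 0.19 in heat shock and by 0.70 ± 0.19 with rapamycin, and RAD23 fell by 0.50 ± 0.14 in heat shock and had an uncalled change of 0.35 with rapamycin. Exchanging the untreated libraries made the rapamycin changes of DSK2 and CUE5 0.26 and 0.06, not called. The rapamycin call of DDI1 was lost when the slope was fitted in minutes or rapamycin at 90 min was left out. Of 15 adaptors of the ligase Rsp5, heat shock raised 10 and lowered 1 (median 0.65) and rapamycin raised 2 and lowered 1 (median 0.22). For a list of this size, the rapamycin counts lay near the shares of all genes. RSP5 itself was called in neither course. ECM21 rose by 2.09 ± 0.16 and CSR2 by 2.10 ± 0.18 in heat shock, and by 1.115 ± 0.16 and 0.80 ± 0.18 with rapamycin; both encode arrestin-like adaptors. BUL2 fell by 0.50 ± 0.12 in heat shock, and ALY2 rose by 0.65 ± 0.13 in heat shock and fell by 0.41 ± 0.13 with rapamycin. The exchange made the rapamycin change of CSR2 0.43 and the heat shock change of ALY2 0.25, neither called, and the rapamycin fall of ALY2 lost its call under 15 of 20 alternatives.

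The next list held 15 genes of other protein quality control ligases and of their partners, such as HRD3 and CUE1. Heat shock raised 7 and lowered 1 of them (median 0.40), and rapamycin raised 4 (median 0.17), where 12.3% of all genes were called higher. ASI2, part of the ligase of the inner nuclear membrane, rose by 1.88 ± 0.12 (SE) in heat shock and by 0.51 ± 0.12 with rapamycin. HRD1, the ligase of the endoplasmic reticulum, had a rise of 1.805 ± 0.18 in heat shock and of 0.77 ± 0.18 with rapamycin, whereas SSM4, also known as DOA10, fell by 0.47 ± 0.12 in heat shock and had an uncalled change of 0.27 with rapamycin. Of 9 other E2 genes, counted with the E2 variant gene MMS2, heat shock raised 3 and lowered 3 (median 0.06). These counts lay near the 32.6% and 37.2% of all genes, and rapamycin lowered 2 (median −0.03), beside 13.9% of all genes. Under equal totals the 6 called in heat shock became 3. MMS2 rose by 1.71 ± 0.20 and UBC7, the E2 of degradation at the endoplasmic reticulum, by 1.05 ± 0.12 in heat shock. RAD6, the E2 that works with Ubr1 and in DNA repair, fell by 0.53 ± 0.17 in heat shock, and its rapamycin change of −0.17 was not called. CDC34, an E2 of the cell cycle, fell by 0.49 ± 0.14 in heat shock and by 0.72 ± 0.14 with rapamycin, and UBC6, which works with Ssm4, fell by 0.47 ± 0.14 with rapamycin. The heat shock falls of SSM4, RAD6 and CDC34 (−0.20, −0.26 and −0.22 under equal totals), and those of BUL2 and RAD23 (−0.22 and −0.23), were not called under that scaling. The rapamycin fall of UBC6 lost its call under 6 alternatives and became 0.04 with the untreated libraries exchanged.

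The 19 deubiquitinase genes, counted with the inhibitor gene RFU1, had 7 called higher and 8 called lower in heat shock (median −0.07), near the 32.6% and 37.2% of all genes and their median of −0.08. Rapamycin raised 3 and lowered 3 (median 0.11), near the 12.3% and 13.9% of all genes. DOA4, the deubiquitinase that recovers ubiquitin at endosomes, rose by 1.62 ± 0.14 (SE) in heat shock and by 0.46 ± 0.14 with rapamycin (adjusted p 3.58e-06 and 0.036 in limma), the second call being lost under 5 of 20 alternatives. RFU1, which encodes an inhibitor of Doa4, fell by 2.11 ± 0.25 in heat shock (adjusted p 3.18e-05 in limma), and its rapamycin change of −0.48 ± 0.25 was not called. UBP15 rose by 1.73 ± 0.13 and OTU2 had a change of −1.865 ± 0.14 in heat shock, both called. With rapamycin UBP5 rose by 0.76 ± 0.17, OTU2 fell by 0.83 ± 0.14 and UBP13 fell by 0.51 ± 0.13; the UBP5 change was 0.21, not called, with the untreated libraries exchanged, and UBP13 lost its call under 3 alternatives.

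**Figure D4:**
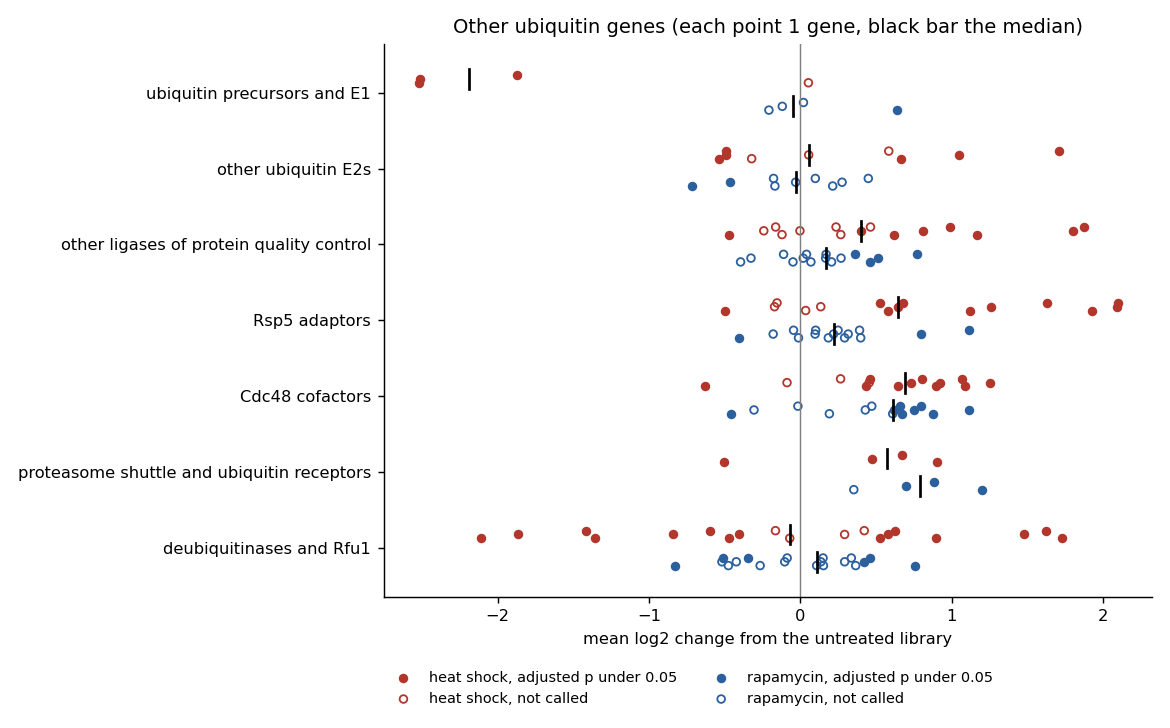
Mean log2 change from the untreated library (horizontal axis) for each gene of 7 lists of other ubiquitin genes, heat shock in red above rapamycin in blue; each point is 1 gene, filled where the adjusted p in limma was under 0.05, and black bars are list medians. The ubiquitin precursors lie at −2.52 to −1.87 in heat shock, and the Cdc48 cofactor medians are 0.69 in heat shock and 0.62 with rapamycin.

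Scaling matters to both the mean changes and the trends of heat shock as a whole. The median heat shock trend of all genes was 0.18 per doubling of time under equal totals and −0.03 under quantile normalization. With the authors' scaling it was 0.01. With libraries brought to equal totals, the median change of all genes was 0.20 in heat shock and 0.04 with rapamycin, against −0.08 and −0.05 with the authors' scaling. The Rpn4 element was matched before 4 of the 80 other ubiquitin genes, UBA1, BUL1, WSS1 and CUZ1, beside 1.6% of all windows. It was matched before none of the 5 genes most like UBI4 and before 1 of the 5 most like CDC48, which was UBI4. Groups of 5 genes are too small to set against that share.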

How the data were processed

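Per the labels' protocols, RNA came from phenol and chloroform extracts and polyA libraries from an NEBNext Ultra kit. Bowtie, HTSeq and sacCer3 are named in the submitters' processing notes, without versions; the annotation, use of strand and normalization method are not given in the sources used here. The authors deposited 1 table of 5045 genes in 12 libraries, whose values are a signal, normalized read counts per the file headers. Dividing by the worth of 1 read in each library (0.8133 to 1.4261) gave whole reads, within 0.05 read, for 100.0% of values. A count of 3 reads equals 2.44 to 4.28 in the table's unit.

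Values were tested as log2(value + 1), which understates changes of low genes, with limma 3.58.1 (R 4.3.3; eBayes with trend) on 4937 genes with a mean of at least 10; 108 were left out. One fit of all 12 libraries held an intercept per course, a step to its treated libraries and a slope over centred log2(time), with 6 residual and 4.29 prior degrees of freedom. Without replicates, p-values describe these 12 libraries. The fit was tried on simulated counts with a flat heat shock step for some genes, no trend and no rapamycin change. That does not test courses that change over time. Alternatives were a pseudocount of 5, no filter, other scalings, the slope in minutes, exchanged or shared untreated libraries, edgeR 4.0.16 and DESeq2 1.42.0 on the recovered reads, and leaving out each treated library; edgeR called 3405 genes in heat shock and 1331 with rapamycin, against 3446 and 1296. Genes named were the 10 chosen, the 5 most like UBI4, UBC4 and CDC48, and from each list the 2 largest rises and falls among called genes in each course, with RPL40A and NPL4 added after their values were seen. The 10 genes and the lists were chosen with earlier results of these data known. Of the systematic names, 5016 matched the RefSeq R64 annotation and 29 did not. Motif windows of 500 bases were chosen after the values were seen. A gene of the lists, ROQ1, was not analysed here.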

Additional observations from a re-analysis of the deposited data

Results flagged for a closer look

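The mean change differed between heat shock and rapamycin, by the test of the difference itself in limma, for 5 of the 10 genes. Heat shock minus rapamycin was 2.37 for UBC8, 1.21 for UBC5, 0.71 for UBC4, 0.70 for HUL5 and 0.64 for UFD4, on the log2 scale. All 5 heat-shocked libraries lay above all 5 rapamycin libraries for UBC8, UBC5, HUL5 and UFD4 but not for UBC4. How many of all genes lay apart in this way was not counted, so that separation is a description of single genes. The trend per doubling of time differed for 6 genes, at −1.11 for UBI4, −0.71 for UBC4, −0.50 for UBC8, −0.46 for CDC48, −0.34 for HUL5 and −0.26 for UBC5. Beside these, 21.7% of all genes tested had a higher mean change in heat shock and 21.0% a lower trend. Each course rests on its own untreated library, and no cause was tested.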

How the results depend on the processing

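No paired analysis was possible because each time point has 1 library. Of 1600 comparisons of a named gene's mean change or difference with its value under an alternative, 1491 kept their direction and their side of the threshold. For genes of the lists, only changes called in the main fit were counted. Some of the uncalled ones moved: with rapamycin, UBX6 gained a call under 5 of 20 alternatives and RPL40B changed sign under 3. Leaving out a library of 1 course cannot move the mean change of the other course. SAN1 in heat shock (−0.04) changed sign under equal totals (0.23), TMM (0.0137), quantile normalization (0.0273), exchanged (0.76) and shared untreated libraries (0.36), edgeR (0.0208) and DESeq2 (0.031), and ranged between −0.117 and 0.0644 as treated libraries were left out. With the untreated libraries exchanged, SAN1 with rapamycin became −0.36, its difference 1.12, UBC8 with rapamycin 0.305, and UBC6 with rapamycin 0.0401; with them shared, the SAN1 difference became 0.32 and UBC8 with rapamycin 0.0938. RSP5 with rapamycin became 0.0236 under equal totals and 0.0995 under quantile normalization, and the CDC48 difference ranged between −0.0801 and 0.139 as libraries were left out. The cause was not tested. By mean change, the 8 of the 10 genes called in heat shock became 6 to 9 over the 20 alternatives, fewest with the slope in minutes. The 3 called with rapamycin became 2 to 4, and the 5 called in the difference became 4 to 7. The count of the 10 genes with a called trend in heat shock, 7, became 4 under quantile normalization and 4 with the slope in minutes, and 4 to 7 with a library left out, the lowest without the 15 min heat shock library. With rapamycin, 3 became 5 under equal totals, 5 under quantile normalization and 1 with the slope in minutes, and 1 to 4 with a library left out, the lowest without 1 of the rapamycin libraries at 15, 30, 90 and 120 min or heat shock at 90 min. Of 840 comparisons of a list's count of called genes, 129 moved by over 1.5 times. With rapamycin, called deubiquitinase genes numbered 2 to 9 (6 as reported) and shuttle factors and receptors 1 to 4 (3). Called genes of other ligases and their partners numbered 2 to 5 (4), and Cdc48 cofactors 5 to 10 (8). Over all genes, calls with rapamycin numbered 1296, or 768 with the slope in minutes and 773 to 1632 with a library left out; differences numbered 2267, or 3794 with shared untreated libraries. Trends called over all genes numbered 2651 in heat shock (1440 without its 15 min library), 899 with rapamycin (442 with the slope in minutes, 224 to 1320 with a library left out, fewest without its 120 min library) and 2323 in their difference (1440 without rapamycin at 15 min). No untreated library could be left out of the fit. Depth limits UBC5 and UBC8 most, at 36 to 81 untreated reads.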
